A study of Drosophila melanogaster with 20 samples.

Results

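The lysosome genes described here are the 102 genes of the deposited expression table, of 17276 in all, whose KEGG annotation held the lysosome pathway. Another 16 genes, which encode subunits of the V-ATPase proton pump and also carry the oxidative phosphorylation pathway, were left out of the group. The members were sorted into 10 roles from their names and orthology entries. These were 17 proteases, 22 glycosidases, 7 sulfatases with the factor that activates them, 6 lipases, and 2 genes of sphingolipid breakdown. The others were 5 phosphatases, nucleases and thioesterases, 8 sterol carriers, 16 membrane proteins, 8 LITAF-like genes, and 11 clathrin and adaptor genes. RNA came from whole adult flies of Drosophila melanogaster aged 1 to 2 days and kept at 25 °C. Poly(A) RNA was fragmented and precipitated with an antibody to N6-methyladenosine (m6A), and untreated fragments were kept as input. The groups were females and males of the yw strain, males with the Mettl3SK2 allele over a deficiency (Mettl3SK2/Df), males labelled Mettl14SK1, and males of the Hakai mutant labelled Hakai4. Each group had 2 input libraries, which gave the RNA levels in FPKM (fragments scaled by transcript length and library size), and 2 precipitated libraries, which gave 1 list of m6A peaks per group. The mutants are whole-animal mutants, each of 1 allele, and no rescued line is among these libraries, so the comparison with yw also compares strain backgrounds.

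Lysosomes are acidic compartments in which proteins, glycans, lipids and nucleic acids delivered by endocytosis and autophagy are broken down. Their hydrolases are made at the endoplasmic reticulum and sorted with the help of clathrin and adaptor complexes, and their membrane proteins export the products. Mettl3 and Mettl14 form the catalytic core of the m6A writer complex, and Hakai is an E3 ligase-like protein found with the complex. In flies the midgut is rich in digestive forms of several of these enzymes, and the adaptor genes include the eye pigment genes g, cm, or and rb.

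The targeted gene was lower in each mutant. Mettl3 stood at 5.22 and 5.17 FPKM in the yw males and at 2.43 and 2.10 FPKM in the Mettl3 males, Mettl14 at 4.19 and 4.25 against 1.77 and 2.02 FPKM in the Mettl14 males, and Hakai at 2.47 and 3.36 against 0.767 and 1.21 FPKM in the Hakai males. Each pair of mutant libraries lay below each pair of controls. The markers of the yw strain differed as well: y stood at 16.7 and 17.9 FPKM in the Mettl14 males against 6.36 and 6.29 in the yw males, and w at 2.66 and 2.72 FPKM in the Mettl3 males against 0.638 and 0.650. Strain background and mutation cannot be told apart in this design. The labelled tissue fitted its markers, since all 17 testis genes and all 11 accessory gland genes looked at were lower in the females and all 11 ovary genes higher.

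As a group the lysosome genes took 0.528% to 0.642% of all FPKM in a library, or summed levels of 3012 to 3989 FPKM. The highest sums were those of the second Mettl14 library, 3989 FPKM, and the second Hakai library, 3908 FPKM with 3414 and 3137 FPKM in the first library of the same group. Over the 10 input libraries, 9 members had a mean above 100 FPKM, 43 lay between 10 and 100, 35 between 1 and 10, and 15 below 1. The 9 genes at the top together held 55.5% of the summed mean level.

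Among proteases, the cathepsin L gene Cp1 ranged from 307 to 576 FPKM over the 10 libraries, CtsB1, a cathepsin B, from 118 to 211 FPKM, and cathD, a cathepsin D, from 128 to 194 FPKM. The lysosomal membrane glycoprotein gene Lamp1 ranged from 285 to 385 FPKM and the sialomucin vsg from 142 to 244 FPKM. Sap-r, the precursor of the saposins that help lipid hydrolases, ranged from 161 to 272 FPKM. The order of the highest levels was Cp1, Lamp1, Sap-r, vsg and CtsB1, and the ranges of neighbours in it overlapped except those of Lamp1 and Sap-r. Sterol carriers were led by Npc2b (109 to 156 FPKM) and Npc2a (74.1 to 162 FPKM), whose products bind sterols in the lysosome lumen. Leading genes of the other roles were lower: the alpha-mannosidases LManVI (35.7 to 115 FPKM) and LManII (47.8 to 69.3 FPKM), clathrin heavy chain Chc (40.8 to 70.1 FPKM) and AP-1sigma (20.4 to 36.7 FPKM), DNaseII (26.8 to 41.3 FPKM) and the thioesterase Ppt2 (21.8 to 35.3 FPKM). In the sulfatase group the highest were CG7049, the ortholog of the sulfatase activating factor (6.56 to 12.9 FPKM), and CG14291, a heparan N-sulfatase (1.83 to 4.35 FPKM). None of these genes differed by as much as 2-fold between a mutant and yw on the fitted scale.

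To ask whether the lysosome genes changed in the writer mutants, log2(FPKM + 1) was tested in limma over the 8 male input libraries, with 2 libraries per group. Fold changes below are log2 differences on that scale, which understates changes of low genes, and ± gives their SE. Of the 102 members, 86 passed a mean of 1 FPKM and were tested, among 13079 genes. Of these, 4 (Npc2e, Npc1b, LManIV and CG30273) would have missed that floor without the libraries of 1 group. A change means a Benjamini-Hochberg adjusted p under 0.05 over all of these. In the Mettl3 males 7 members rose and 5 fell, 13.95% of those tested, where 8.79% of all tested genes changed (5.77% higher and 3.01% lower). In the Mettl14 males 12 rose and 0 fell by limma, 13.95% where all genes gave 9.05% (6.58% higher, 2.48% lower), and 35 members had an unadjusted p under 0.05. In the Hakai males 12 rose and 3 fell, 17.4% where all genes gave 8.7% (4.95% higher, 3.75% lower). The median log2 fold change of the members was 0.02, 0.28 and 0.12 in the Mettl3, Mettl14 and Hakai males, and that of all tested genes 0.03, 0.11 and 0.03. When all libraries were scaled to equal medians, the Mettl14 values became 0.15 for the members and -0.02 for all genes, with 11 members higher and 3 lower. The 3 comparisons share the yw males, so their calls are not independent of each other.

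In total 23 of the 86 tested members changed in at least 1 mutant, where 17.1% of all tested genes did. Of these 17 rose and 6 fell (all genes 11% and 6.61%), and no member changed in both directions. Of the 17 that rose, 7 did so in 1 mutant, 6 in 2 and 4 in all 3, where 1.81% of all tested genes were called higher in all 3. Of the 6 that fell, 4 did so in 1 mutant, 2 in 2 and 0 in all 3, where 0.658% of all tested genes were called lower in all 3. Another rule took an unadjusted p under 0.05 with at least a 2-fold change. By it 2 members were higher and 1 lower in the Mettl3 males, where 2.94% and 1.32% of all tested genes were. By that rule 8 were higher and 0 lower in the Mettl14 males (3.4% and 1.23% of all tested genes), and 3 were higher and 3 lower in the Hakai males (2.47% and 1.72%). The other 63 tested members had no call. These counts rest on few libraries. With Mettl3 library 1 or library 2 left out, limma called 0 of 85 members in the Mettl3 comparison (20 and 19 with an unadjusted p under 0.05), and 5 without yw male library 2. The Mettl14 count ran from 8 to 13 and the Hakai count from 6 to 9 when 1 library at a time was left out. The p-values measure only the spread between these libraries, since nothing says that they came from separate cultures of flies.

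**Figure D1:**
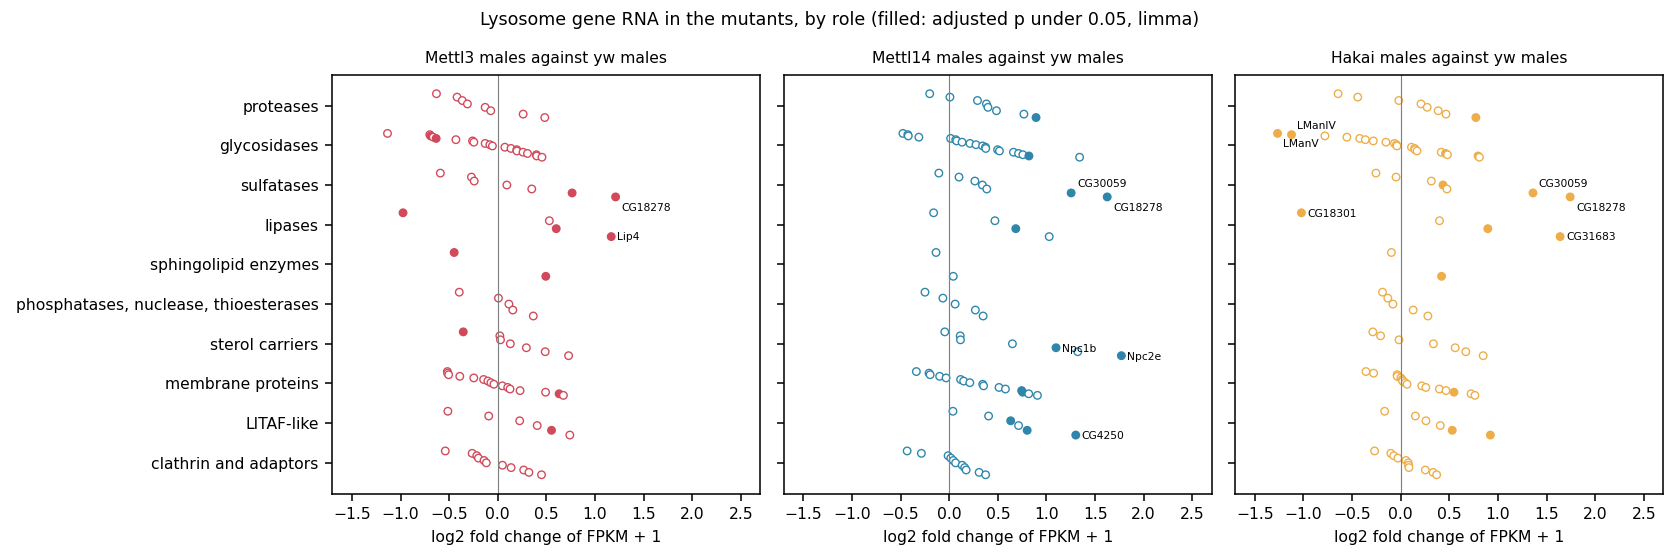
Log2 fold change of FPKM + 1 (x axis) of the 86 tested lysosome genes in each mutant against yw males, arranged by role (y axis), with 1 point per gene and filled points at an adjusted p under 0.05. Sulfatases have 2, 2 and 3 filled points and lipases 3, 1 and 3 in the Mettl3, Mettl14 and Hakai males, and clathrin and adaptor genes have no filled point.

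The V-ATPase genes and 56 other genes that are not members were looked at beside them, all in the same fit. The 56 were listed under nutrient signalling, vesicle tethering, autophagy and pigment granule sorting, and included the strain markers w and y. In the Mettl3, Mettl14 and Hakai males 13.3%, 20% and 0% of the tested V-ATPase genes changed, and 5.36%, 3.57% and 0% of the 56. Over all tested genes the shares were 8.79%, 9.05% and 8.7%. Of 15 tested V-ATPase genes, 2 fell in the Mettl3 males (VhaPPA1-1, -0.77, and VhaAC39-2, -0.71), Vha16-3 and Vha16-5 rose and Vha100-4 fell in the Mettl14 males, and limma called 0 in the Hakai males (2 with an unadjusted p under 0.05). Of the 56, the strain marker w rose and 2 genes fell in the Mettl3 males, w and y rose in the Mettl14 males and limma called 0 in the Hakai males, where 3 had an unadjusted p under 0.05. Those that fell in the Mettl3 males were Tsc1, an inhibitor of Tor signalling (-0.76), and Atg6, an autophagy gene (-1.13), all of these picked out after their values were seen. Mitf, the fly ortholog of the transcription factors that drive lysosome genes in mammals, had log2 fold changes of -0.07, -0.08 and -0.25 in the Mettl3, Mettl14 and Hakai males, none past the test.

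Of the 4 members that rose in all 3 mutants, 2 were neighbouring sulfatase genes, CG18278 and CG30059. Both are annotated as N-acetylglucosamine-6-sulfatase, which removes sulfate from heparan and keratan sulfate, and lie on chromosome 2R between 13408042 and 13414620. CG18278 stood at 0 and 0.304 FPKM in the yw males, 1.67 and 1.62 FPKM in the Mettl3 males, 2.33 and 2.72 FPKM in the Mettl14 males and 2.50 and 3.18 FPKM in the Hakai males. Every mutant library lay above both yw libraries, of which 1 is listed at 0. The log2 fold changes were 1.21 ± 0.16 (limma adjusted p = 0.00775), 1.62 ± 0.16 (limma adjusted p = 0.00200) and 1.74 ± 0.16 (limma adjusted p = 0.00155) in the Mettl3, Mettl14 and Hakai males. CG30059 stood at 0.344 and 0.534 FPKM in the yw males, 1.42 and 1.46 FPKM in the Mettl3 males, 2.56 and 2.29 FPKM in the Mettl14 males and 2.47 and 2.92 FPKM in the Hakai males. Its groups did not overlap either, and its log2 fold changes were 0.76 ± 0.12 (limma adjusted p = 0.0139), 1.25 ± 0.12 (limma adjusted p = 0.00164) and 1.36 ± 0.12 (limma adjusted p = 0.00125).

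The table gives both genes of the pair the same protein description, so reads could be split between near-identical copies and the levels of each are uncertain. The sum of the pair would be free of such a split only for transcripts of equal length and with no shared read dropped or counted at both. Neither point was checked. The sum was 0.344 and 0.838 FPKM in the yw males, 3.08 and 3.09 in the Mettl3 males, 4.90 and 5.01 in the Mettl14 males, and 4.97 and 6.10 in the Hakai males. The lowest mutant sum was thus well above the highest yw sum. For the Mettl14 and Hakai males the call of both genes was kept whichever library was left out. For the Mettl3 males it was lost without either Mettl3 library, with adjusted p of 0.0777 and 0.0705 for CG18278 and of 0.115 and 0.118 for CG30059. Each gene also overlaps another annotated gene, IMPPP and CG33470, so part of the reads of each and of their sum may be those of these genes. Among the other 5 tested genes of the role only Ids, an iduronate-2-sulfatase named after its values were seen, passed the test, at 1.11 and 1.01 FPKM in the yw males and 1.85 and 1.72 FPKM in the Hakai males, a log2 fold change of 0.44 ± 0.10 (limma adjusted p = 0.0496).

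Of 6 lipases 4 were tested, and each of the 4 changed in at least 1 mutant. CG18858 and CG31683 encode proteins like the lysosomal phospholipase A2 of mammals, share 1 protein description and lie side by side on chromosome 2L, so their levels are uncertain in the same way. CG18858 stood at 15.6 and 17.8 FPKM in the yw males, 25.7 and 25.98 FPKM in the Mettl3 males, 29.7 and 25.3 FPKM in the Mettl14 males and 34.0 and 29.9 FPKM in the Hakai males. No mutant library overlapped the yw range, and the log2 fold changes were 0.60 ± 0.12 (limma adjusted p = 0.0335), 0.68 ± 0.12 (limma adjusted p = 0.0202) and 0.90 ± 0.12 (limma adjusted p = 0.00748). Its Hakai call was kept whichever library was left out, its Mettl14 call was lost without Mettl14 male library 1, Mettl3 male library 1, Mettl3 male library 2 or yw male library 1 (adjusted p up to 0.102), and its Mettl3 call was lost without Mettl3 male library 1, Mettl3 male library 2, yw male library 1 or yw male library 2 (adjusted p up to 0.215). CG31683 stood at 6.81 and 10.3 FPKM in the yw males, 12.7 and 12.5 FPKM in the Mettl3 males, 13.5 and 24.4 FPKM in the Mettl14 males and 25.8 and 31.1 FPKM in the Hakai males. The Hakai libraries were the highest, with a log2 fold change of 1.64 ± 0.29 (limma adjusted p = 0.0185). That call was lost without Hakai male library 1 (adjusted p = 0.0614), Hakai male library 2 (adjusted p = 0.0990) and yw male library 1 (adjusted p = 0.0866).

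The other lipases, Lip4 and CG18301, are annotated as lysosomal acid lipases and also lie next to each other on chromosome 2L, yet they moved in opposite directions in the Mettl3 males. Lip4 stood at 11.00 and 7.81 FPKM in the yw males, 20.4 and 23.9 FPKM in the Mettl3 males, 14.1 and 12.4 FPKM in the Mettl14 males and 11.6 and 13.6 FPKM in the Hakai males. Lip4 rose in the Mettl3 males by 1.17 ± 0.18 (limma adjusted p = 0.0120) and did not pass the test in the others. Its call was lost without Mettl3 male library 1 (adjusted p = 0.0704) and Mettl3 male library 2 (adjusted p = 0.105). CG18301 stood at 9.77 and 10.5 FPKM in the yw males, 4.71 and 4.60 FPKM in the Mettl3 males, 7.62 and 10.5 FPKM in the Mettl14 males and 4.30 and 4.66 FPKM in the Hakai males. It was lower in the Mettl3 and Hakai libraries than in any yw or Mettl14 library, with log2 fold changes of -0.97 ± 0.14 (limma adjusted p = 0.0112) and -1.02 ± 0.14 (limma adjusted p = 0.00826). The Mettl3 call was lost without Mettl3 male library 1 (adjusted p = 0.0956), Mettl3 male library 2 (adjusted p = 0.0995) and yw male library 2 (adjusted p = 0.0668), and the Hakai call was lost without yw male library 2 (adjusted p = 0.0502). Between the mutants themselves, CG18301 was lower in the Hakai than in the Mettl14 males, with a log2 difference of -0.86 ± 0.14 (limma adjusted p = 0.0201).

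The LITAF-like genes encode small proteins with a domain found at endosome and lysosome membranes, and all 8 lie in 1 run on chromosome 2R between 22657901 and 22670622. Of 6 tested, 1 rose in the Mettl3 males, 3 in the Mettl14 males and 2 in the Hakai males. CG13510 stood at 12.2 and 10.6 FPKM in the yw males, 17.1 and 17.1 FPKM in the Mettl3 males, 21.0 and 20.0 FPKM in the Mettl14 males and 16.8 and 16.8 FPKM in the Hakai males. Every mutant library was above the yw range, and the log2 fold changes were 0.55 ± 0.10 (limma adjusted p = 0.0195), 0.80 ± 0.10 (limma adjusted p = 0.00434) and 0.53 ± 0.10 (limma adjusted p = 0.0212). CG13510 overlaps CG13511 and CG42565, which are members as well, so part of its reads may be theirs. Its Mettl14 call was kept whichever library was left out, its Mettl3 call was lost without Mettl3 male library 1 (adjusted p = 0.174), Mettl3 male library 2 (adjusted p = 0.163) and yw male library 2 (adjusted p = 0.0814), and its Hakai call was lost without Hakai male library 1, Hakai male library 2, Mettl3 male library 1, Mettl3 male library 2 or yw male library 2 (adjusted p up to 0.0851).

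CG4250, in the same run and without an orthology entry, was the most abundant of the 8. CG4250 stood at 35.8 and 40.4 FPKM in the yw males, 42.4 and 47.0 FPKM in the Mettl3 males, 85.1 and 106 FPKM in the Mettl14 males and 59.1 and 90.0 FPKM in the Hakai males. It rose by 1.302 ± 0.22 (limma adjusted p = 0.0146) in the Mettl14 males and 0.92 ± 0.22 (limma adjusted p = 0.0498) in the Hakai males, while the Mettl3 libraries lay just above the yw range. The Mettl14 call was lost without Mettl14 male library 2 (adjusted p = 0.0839), yw male library 1 (adjusted p = 0.0704) and yw male library 2 (adjusted p = 0.0598). The Hakai call was lost without Hakai male library 2, Mettl14 male library 1, Mettl14 male library 2, Mettl3 male library 1, Mettl3 male library 2, yw male library 1 or yw male library 2 (adjusted p up to 0.181). The difference between the Mettl14 and Mettl3 males was itself 1.08 ± 0.22 (limma adjusted p = 0.0284). CG13516, named after its values were seen, rose in the Mettl14 males, from 7.35 and 6.37 to 10.8 and 11.6 FPKM (0.63 ± 0.11, limma adjusted p = 0.0151). In the contrasts between mutants it did not pass the test.

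Of 20 tested glycosidases, 2 fell in the Mettl3 males, 1 rose in the Mettl14 males, and 2 rose and 2 fell in the Hakai males. Those that fell in the Hakai males belong to a run of 4 lysosomal alpha-mannosidase genes, LManIII to LManVI, on chromosome 2L between 8765273 and 8781252, whose enzymes trim mannose from glycans. LManV stood at 32.9 and 28.1 FPKM in the yw males, 18.5 and 18.4 FPKM in the Mettl3 males, 37.5 and 42.0 FPKM in the Mettl14 males and 11.5 and 12.6 FPKM in the Hakai males. Both Mettl3 and both Hakai libraries lay below the yw range and both Mettl14 libraries above it. The log2 fold changes were -0.69 ± 0.11 (limma adjusted p = 0.0166), 0.37 ± 0.11 (limma adjusted p = 0.104) and -1.27 ± 0.11 (limma adjusted p = 0.00137). The Hakai call was kept whichever library was left out, and the Mettl3 call was lost without Mettl3 male library 1 (adjusted p = 0.140), Mettl3 male library 2 (adjusted p = 0.142) and yw male library 1 (adjusted p = 0.0524). LManIV stood at 2.10 and 1.16 FPKM in the yw males, 0.620 and 0.569 FPKM in the Mettl3 males, 1.74 and 1.72 FPKM in the Mettl14 males and 0.140 and 0.240 FPKM in the Hakai males. Its Hakai libraries were again the lowest, at -1.12 ± 0.18 (limma adjusted p = 0.0119), a call that was lost without Hakai male library 1 (adjusted p = 0.0652) and Hakai male library 2 (adjusted p = 0.0521). Without yw male library 1 or either Mettl14 library LManIV was too low to be tested, so its call was kept in 3 of 8 such fits.

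The neighbours LManVI and LManIII did not pass the test against yw. LManVI stood at 57.9 and 56.7 FPKM in the yw males, 42.0 and 42.5 FPKM in the Mettl3 males, 82.7 and 115 FPKM in the Mettl14 males and 35.7 and 50.6 FPKM in the Hakai males. LManIII stood at 8.65 and 3.15 FPKM in the yw males, 6.21 and 6.29 FPKM in the Mettl3 males, 13.6 and 16.6 FPKM in the Mettl14 males and 3.44 and 3.20 FPKM in the Hakai males. In both, the Mettl14 libraries were the highest, and the Hakai libraries lay below both of them. In the contrast of Hakai with Mettl14 males all 4 genes of the run were lower, with log2 differences of -1.89 ± 0.36 (limma adjusted p = 0.0293) for LManIII, -1.20 ± 0.18 (limma adjusted p = 0.0132) for LManIV, -1.64 ± 0.11 (limma adjusted p = 0.00111) for LManV and -1.18 ± 0.21 (limma adjusted p = 0.0229) for LManVI. LManIII is named here after its values were seen, and over all genes 6.49% changed in that contrast. LManII, at another place on 2L, differed from the run: it stood at 47.8 and 51.3 FPKM in the yw males and 67.9 and 69.3 FPKM in the Hakai males and rose by 0.46 ± 0.09 (limma adjusted p = 0.0264). This call was lost whichever 1 of the 8 male libraries was left out (adjusted p up to 0.103).

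Midgut markers also differed between the male groups, with the second Hakai library within the yw range. The summed level of 17 midgut protease and amylase genes was 1102 and 1519 FPKM in the yw males, 1032 and 1051 in the Mettl3 males, 2593 and 4887 in the Mettl14 males, and 647 and 1105 in the Hakai males, with none of the 17 at 0 in any library. Of these 17 genes, 1 rose and 2 fell in the Mettl3 males, 10 rose in the Mettl14 males, and 3 rose and 5 fell in the Hakai males. The part of the midgut in the changes of lysosome genes was not tested. In whole flies, fewer cells of a type and less RNA per cell cannot be told apart.

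Other glycosidases changed on their own. betaGlu stood at 3.31 and 3.63 FPKM in the yw males, 5.30 and 4.96 FPKM in the Mettl3 males, 6.44 and 7.36 FPKM in the Mettl14 males and 6.43 and 7.10 FPKM in the Hakai males. betaGlu, a beta-glucuronidase that acts on glycosaminoglycans, rose by 0.82 ± 0.11 (limma adjusted p = 0.00573) and 0.80 ± 0.11 (limma adjusted p = 0.00679) in the Mettl14 and Hakai males, and both calls were kept whichever library was left out. Its span overlaps an antisense RNA, and whether strand was used in counting is not given in the sources used here. CG13397 stood at 5.68 and 6.32 FPKM in the yw males, 3.39 and 3.62 FPKM in the Mettl3 males, 3.95 and 4.47 FPKM in the Mettl14 males and 5.42 and 5.97 FPKM in the Hakai males. CG13397, an alpha-N-acetylglucosaminidase of heparan sulfate breakdown, fell in the Mettl3 males, with a log2 fold change of -0.63 ± 0.11 (limma adjusted p = 0.0172), a call that was lost without Mettl3 male library 1 (adjusted p = 0.159), Mettl3 male library 2 (adjusted p = 0.119) and yw male library 2 (adjusted p = 0.0862). In the Mettl14 and Hakai males the values were -0.43 ± 0.11 (limma adjusted p = 0.0604) and -0.06 ± 0.11 (limma adjusted p = 0.839).

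Of 7 tested sterol carriers, 2 rose in the Mettl14 males, 1 fell in the Mettl3 males, and limma called 0 in the Hakai males, where 2 had an unadjusted p under 0.05. Npc2e belongs to the family of sterol-binding Npc2 proteins. Npc2e stood at 0.378 and 0.517 FPKM in the yw males, 1.04 and 1.01 FPKM in the Mettl3 males, 4.06 and 3.81 FPKM in the Mettl14 males and 0.536 and 0.329 FPKM in the Hakai males. The Mettl14 libraries lay far above all other male libraries, with a log2 fold change of 1.77 ± 0.12 (limma adjusted p = 3.65e-04), while the Hakai libraries overlapped the yw range. Npc2e overlaps an antisense RNA. Npc1b stood at 0.867 and 0.631 FPKM in the yw males, 0.676 and 0.871 FPKM in the Mettl3 males, 2.20 and 3.36 FPKM in the Mettl14 males and 0.421 and 0.440 FPKM in the Hakai males. Npc1b, which is needed for sterol uptake in the midgut, also rose in the Mettl14 males alone among the mutants, by 1.10 ± 0.17 (limma adjusted p = 0.0116).

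Both genes reached the mean of 1 FPKM needed for the test only through the Mettl14 libraries, in which they are high, since the other 6 male libraries averaged 0.636 FPKM for Npc2e and 0.651 FPKM for Npc1b. The call of Npc2e was kept whichever library was left out. That of Npc1b was lost without yw male library 2 (adjusted p = 0.0693), and without Mettl14 male library 2 the gene was too low to be tested. Between mutants the Mettl14 males exceeded the Mettl3 males by 1.28 ± 0.12 (limma adjusted p = 0.00188) for Npc2e and 1.08 ± 0.17 (limma adjusted p = 0.0124) for Npc1b, and the Hakai males lay below the Mettl14 males, with log2 differences of -1.79 ± 0.12 (limma adjusted p = 9.18e-04) and -1.38 ± 0.17 (limma adjusted p = 0.00670). These are the groups with the highest and the lowest mean of the midgut marker sums given above, and the part of the midgut in these values was not tested. Yolk protein RNA, a marker of the female fat body, summed over Yp1, Yp2 and Yp3 to 5.27 and 7.37 FPKM in the yw males, 8.80 and 8.59 in the Mettl3 males, 39.8 and 104.9 in the Mettl14 males and 52.6 and 66.2 in the Hakai males. The sum was thus above the yw range in the Hakai males as well, but the 3 genes did not move alike there. Their log2 fold changes had a median of 0.12 and a maximum of 3.81 in the Hakai males, beside 2.08 and 3.59 in the Mettl14 males. The part of the female fat body in the values of Npc2e was not tested. Npc1a, the transporter that releases sterol from lysosomes, fell slightly in the Mettl3 males, from 24.4 and 23.3 to 18.2 and 18.6 FPKM (-0.35 ± 0.08, limma adjusted p = 0.0489), and was named after its values were seen.

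Among 16 membrane proteins, 1 rose in the Mettl3 males, 2 in the Mettl14 males and 1 in the Hakai males, all of them tetraspanins of the run of Tsp42E genes on chromosome 2R, whose mammalian relative CD63 is abundant in late endosomes. Tsp42Ee stood at 116 and 102 FPKM in the yw males, 170.3 and 167 FPKM in the Mettl3 males, 190.4 and 178 FPKM in the Mettl14 males and 146 and 141 FPKM in the Hakai males. All mutant libraries were above the yw range, and the test was passed in the Mettl3 males, 0.63 ± 0.11 (limma adjusted p = 0.0195), and the Mettl14 males, 0.76 ± 0.11 (limma adjusted p = 0.00900). The Mettl3 call was lost without Mettl3 male library 1 (adjusted p = 0.193), Mettl3 male library 2 (adjusted p = 0.168) and yw male library 2 (adjusted p = 0.0824), and the Mettl14 call was lost without Mettl14 male library 1 (adjusted p = 0.0593). Tsp42Ea stood at 25.3 and 29.9 FPKM in the yw males, 34.8 and 30.2 FPKM in the Mettl3 males, 47.8 and 45.8 FPKM in the Mettl14 males and 38.6 and 42.9 FPKM in the Hakai males. Tsp42Ea rose in the Mettl14 males by 0.74 ± 0.13 (limma adjusted p = 0.0159) and in the Hakai males by 0.55 ± 0.13 (limma adjusted p = 0.0474). Its Mettl14 call was lost without Mettl14 male library 1 (adjusted p = 0.0847), Mettl14 male library 2 (adjusted p = 0.0737) and yw male library 1 (adjusted p = 0.0623), and its Hakai call was lost whichever 1 of the 8 male libraries was left out (adjusted p up to 0.182). Tsp42Ea overlaps Tsp42Eb and CG30159, so its level is uncertain.

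Of 8 proteases tested, the cathepsin L-like CG11459 was the only one with a call in a mutant. CG11459 stood at 7.06 and 5.52 FPKM in the yw males, 5.98 and 5.82 FPKM in the Mettl3 males, 11.5 and 13.5 FPKM in the Mettl14 males and 10.5 and 12.3 FPKM in the Hakai males. The Mettl14 and Hakai libraries were all above the yw and Mettl3 libraries, with log2 fold changes of 0.89 ± 0.14 (limma adjusted p = 0.0130) and 0.77 ± 0.14 (limma adjusted p = 0.0219). Its Mettl14 call was lost without Mettl14 male library 2 (adjusted p = 0.0787) and yw male library 2 (adjusted p = 0.0593), and its Hakai call was lost without Hakai male library 1, Hakai male library 2, Mettl3 male library 1, Mettl3 male library 2 or yw male library 2 (adjusted p up to 0.106). Cp1, CtsB1 and cathD did not pass the test in any mutant, with log2 fold changes between -0.13 and 0.49. Bace, an aspartic protease, was at 54.8 and 65.9 FPKM in the yw males and 72.3 and 147 FPKM in the Mettl14 males, a difference that did not pass the test: 0.77 ± 0.37 (limma adjusted p = 0.270).

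The 2 genes of the sphingolipid role, an enzyme and the saposin precursor, moved apart in the Mettl3 males. CG3376, a predicted acid sphingomyelinase, stood at 15.2 and 16.1 FPKM in the yw males, 22.0 and 22.9 in the Mettl3 males, 15.7 and 16.5 in the Mettl14 males and 21.6 and 21.0 in the Hakai males. It rose in the Mettl3 and Hakai males, by 0.49 ± 0.09 (limma adjusted p = 0.0194) and 0.42 ± 0.09 (limma adjusted p = 0.0326), and the Mettl14 libraries overlapped the yw range. Its Mettl3 call was lost without Mettl3 male library 1, Mettl3 male library 2, yw male library 1 or yw male library 2 (adjusted p up to 0.194), and its Hakai call was lost whichever 1 of the 8 male libraries was left out (adjusted p up to 0.116). Sap-r fell in the Mettl3 males, from 213 and 228 to 162 and 161 FPKM (-0.45 ± 0.10, limma adjusted p = 0.0489), and this call was lost whichever 1 of the 8 male libraries was left out (adjusted p up to 0.310). The 5 phosphatases, nucleases and thioesterases had 0 limma calls in each mutant, with 0, 1 and 1 at an unadjusted p under 0.05 in the Mettl3, Mettl14 and Hakai males.

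Among the clathrin and adaptor genes, by limma 0 of 11 changed in each mutant, and 3, 4 and 3 had an unadjusted p under 0.05 in the Mettl3, Mettl14 and Hakai males. Chc, which forms the clathrin coat, stood at 47.3 and 51.8 FPKM in the yw males, 40.8 and 41.4 in the Mettl3 males, 52.0 and 56.9 in the Mettl14 males and 57.9 and 67.8 in the Hakai males. Over the 11 genes the log2 fold changes ran from -0.54 to 0.45 in the Mettl3 males, from -0.43 to 0.37 in the Mettl14 males and from -0.27 to 0.37 in the Hakai males.

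**Figure D2:**
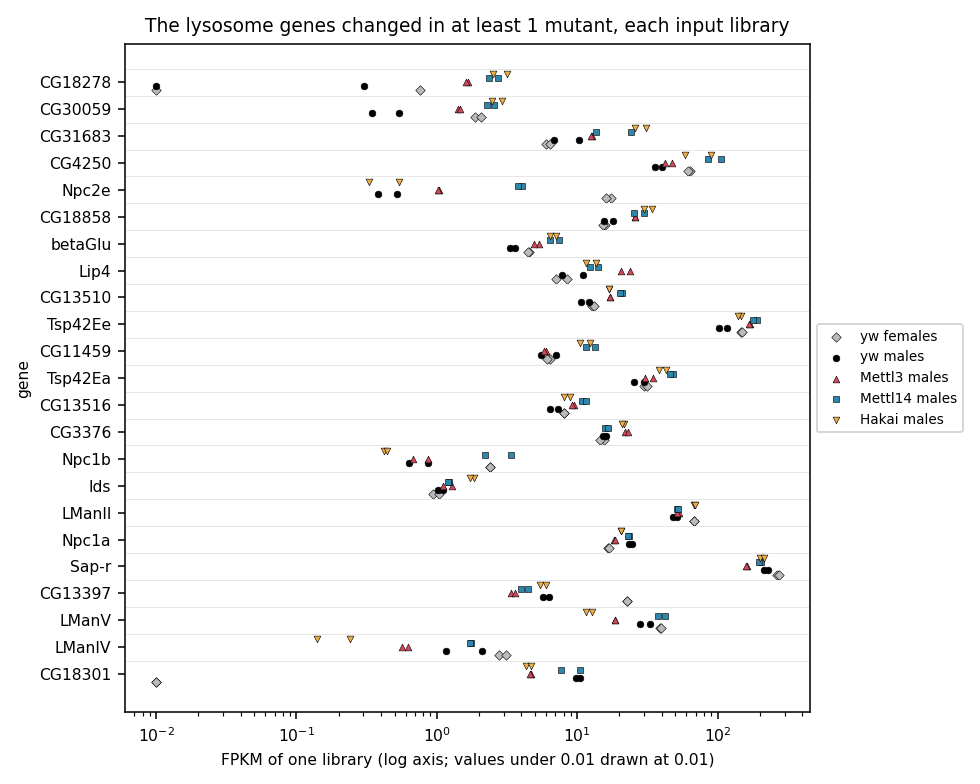
FPKM (x axis, log scale, values under 0.01 drawn at 0.01) in each of the 10 input libraries for the 23 lysosome genes that changed in at least 1 mutant (y axis), with 1 point per library and groups by colour and shape. The sulfatase pair lies above the yw males in every mutant library, while LManV, LManIV, Npc2e and Npc1b differ between the mutants.

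The replicate libraries differed from each other in some groups. Between the 2 Hakai libraries 71 of 87 members were higher in library 2, 63 in the Mettl14 pair, 53 in the yw males and 46 in each of the Mettl3 and yw female pairs. Members over 0.5 apart on the log2 scale numbered 17 in the Hakai, 10 in the Mettl14, 11 in the yw male, 0 in the Mettl3 and 2 in the yw female pair. Over all genes 14.5%, 10.6%, 12.2%, 2.03% and 1.98% were as far apart in these pairs. The Mettl3 pair was thus the closest among the males. Accessory gland markers also varied, from 2177 to 3623 FPKM in the yw males and up to 6340 FPKM in a Mettl14 library, and their part was not tested.

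To describe the lysosome genes by sex, yw females were compared with yw males in a fit of these 4 libraries, in which 86 members were tested. In females 27 members were higher and 9 lower, 41.9% of those tested, where 58.8% of all 12778 tested genes changed (27.4% higher, 31.4% lower). At an unadjusted p under 0.05 and at least a 2-fold change, 6 were higher and 5 lower, where 9.2% and 22.9% of all tested genes were. The median log2 fold change was 0.13 for the members and -0.03 for all genes. Under equal medians of all libraries these became 0.50 and 0.34, with 48 members higher and 7 lower. The count was 16 and 17 without female library 1 and 2, and 58 and 51 without male library 1 and 2. Every comparison of the sexes includes the gonads, whose part in these values was not tested.

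Adaptors were the role with most female-high genes, 8 of 11, with no gene lower. AP-1sigma stood at 35.3 and 36.7 FPKM in females and 27.7 and 20.4 FPKM in males (0.58 ± 0.17, limma adjusted p = 0.0419), and Chc at 70.1 and 68.6 against 47.3 and 51.8 FPKM (0.48 ± 0.09, limma adjusted p = 0.0122). The calls of both were lost without either female library, with adjusted p of up to 0.155 and 0.184. Glycosidases gave 7 higher and 3 lower, LITAF-like genes 3 higher, and sterol carriers 2 higher and 2 lower.

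The largest female-high member was Npc2e, with 17.5 and 15.9 FPKM in females and 0.378 and 0.517 FPKM in males (3.61 ± 0.10, limma adjusted p = 2.85e-05). CG42566, a LITAF-like gene, stood at 8.37 and 10.9 against 1.83 and 1.79 FPKM (1.91 ± 0.14, limma adjusted p = 5.90e-04), and CG13397 at 22.8 and 22.5 against 5.68 and 6.32 FPKM (1.76 ± 0.09, limma adjusted p = 1.58e-04). The aspartic proteases CG31928, at 4.01 and 3.45 against 0.490 and 0.335 FPKM (1.74 ± 0.12, limma adjusted p = 4.56e-04), and Bace, at 138 and 128 against 54.8 and 65.9 FPKM (1.13 ± 0.13, limma adjusted p = 0.00237), followed. In each of these genes both female libraries lay above both male libraries. CG30059 was female-high too (1.88 and 2.05 against 0.344 and 0.534 FPKM, 1.05 ± 0.12, limma adjusted p = 0.00232), so that its level in females lay within the range of the mutant males. Midgut markers were higher in females as well, at 2349.8 and 2306 FPKM, and 11 of 17 passed the test.

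Male-high members were led by CG18301, which is listed at 0 in both female libraries and stood at 9.77 and 10.5 FPKM in males (limma adjusted p = 2.24e-05). CG15117, a beta-glucuronidase, stood at 2.48 and 2.38 FPKM in females and 18.1 and 17.5 FPKM in males (-2.46 ± 0.08, limma adjusted p = 3.96e-05). CG10104, an aspartic protease of the cathepsin D kind, was at 0.00700 and 0 against 3.34 and 3.45 FPKM (-2.13 ± 0.09, limma adjusted p = 1.05e-04). None of these groups overlapped. CG4847, a cathepsin-like cysteine protease, reached 67.7 and 65.9 FPKM in females and 146 and 157 FPKM in males (-1.17 ± 0.09, limma adjusted p = 6.76e-04), and Npc2h 14.6 and 13.03 against 25.8 and 36.1 FPKM (-1.09 ± 0.19, limma adjusted p = 0.00903). In the fit of the sexes 7 members (Npc2e, CG30059, CG31928, Npc1b, CG18301, CG10104 and Ids) passed the floor of 1 FPKM only through the sex in which they were higher, so their entry into the test rested on that sex. CG18301 fell in the Mettl3 and Hakai males to levels still above the 0 listed for females.

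**Figure D3:**
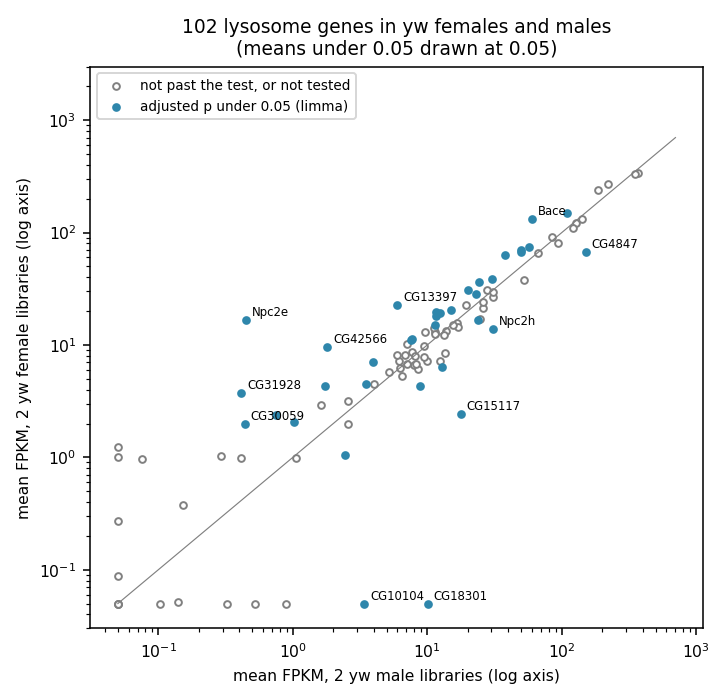
Mean FPKM of each lysosome gene in yw males (x axis) and yw females (y axis), both on log axes, with 1 point for each of the 102 genes, means under 0.05 drawn at 0.05, and filled points at an adjusted p under 0.05. Npc2e, CG13397 and CG42566 lie above the diagonal and CG15117, CG10104 and CG4847 below it.

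The m6A peaks were counted from the deposited lists, in which a peak has a position, a fold enrichment of precipitated over input RNA, and a segment of the transcript. Each list joins the replicates of a group, so peak values carry no replicate error and no test. In yw males 62 of the 102 members had a peak (60.8%, Wilson 95% interval 51.1% to 69.7%), in yw females 57, and in the Mettl3, Mettl14 and Hakai males 65, 56 and 60. Among tested genes 69.8% of the members and 71.0% of all genes had a peak in yw males, so the members were near the background. No list held a peak of 23 members, of which 12 were expressed enough to be tested.

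The segments differed between the lists. Peaks in the 5′ UTR were 20 of 97 member peaks in yw males (20.6%, Wilson 95% interval 13.8% to 29.7%) and 31 of 99 in yw females (31.3%). They were 10 of 95 in the Mettl3 males (10.5%), 9 of 83 in the Mettl14 males (10.8%) and 9 of 88 in the Hakai males (10.2%). Over the peaks of all genes the shares were 22.8%, 26.9%, 15.4%, 12.4% and 17.3% in the same order. The members with a 5′ UTR peak numbered 14 in yw males, 23 in yw females and 7 in each mutant. Intervals and shares cover counting error only, and several peaks can lie in 1 gene.

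A yw male peak was said to have a partner in another list when they overlapped by over 50% of the smaller one. Of the 20 member peaks in the 5′ UTR, 13 had no partner in the Mettl3 list (65.0%), 13 none in the Mettl14 list and 14 none in the Hakai list (70.0%), where all yw 5′ UTR peaks gave 46.7%, 56.5% and 38.6%. The Wilson intervals of the members reached from 43.3% to 81.9% and, for Hakai, from 48.1% to 85.5%. In all 3 lists 10 had no partner (where all genes gave 30.9%). These 10 peaks lay in 7 genes: Chc, Mvl, CG5731, LManII, CG15117, Tsp29Fa and g. All 10 had a partner in the yw female list, and 83.3% of such peaks of all genes did. Of every yw male 5′ UTR peak, lost or not, 19 of 20 in the members and 89.6% over all genes had one. The 10 were thus near the rate of any 5′ UTR peak, and the peaks of CG5731 shared a female partner. Among firmer yw male peaks the share was smaller. At an FDR of at most 0.01, 7 of 17 5′ UTR member peaks had no partner in all 3 lists (41.2%, all genes 27.7%). Of those enriched 5-fold or more it was 1 of 4 (25%, all genes 19.2%).

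**Figure D4:**
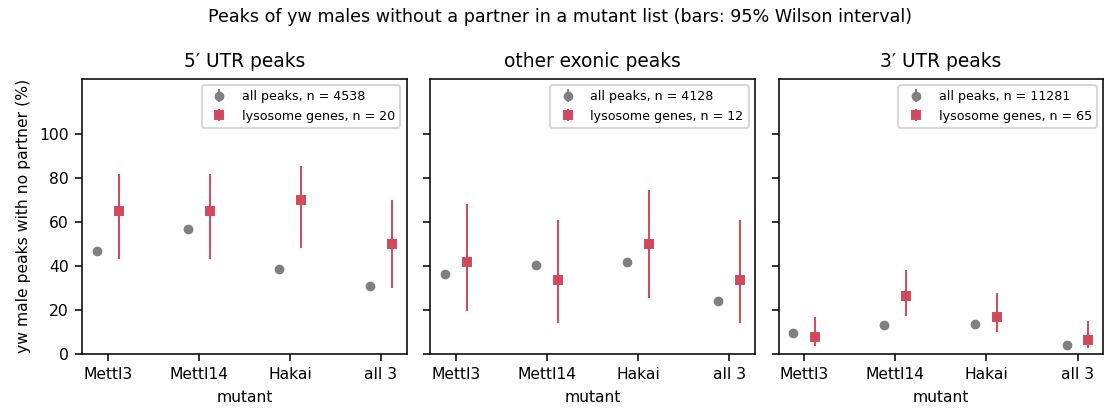
Share of yw male peaks with no partner in each mutant list or in all 3 (y axis, percent), for lysosome genes and for all genes, by segment, with 95% Wilson intervals as bars. Lysosome 5′ UTR peaks have shares of 50% to 70% and 3′ UTR peaks shares under 30%.

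The 5′ UTR peak of Chc on chromosome X, from 15834132 to 15835490, had a fold enrichment of 4.20 in yw males and 6.94 in yw females, and no partner in any mutant list. Mvl, an NRAMP-type metal transporter of endosomes and lysosomes, had 4 peaks in its 5′ UTR on chromosome 3R, the strongest from 21058678 to 21059036 with a fold enrichment of 4.64 in yw males and 4.46 in yw females. Of these 4, 3 had no partner in all 3 mutants and the fourth had one only in the Mettl14 list. CG5731, an alpha-N-acetylgalactosaminidase, had overlapping 5′ UTR peaks on 2L of 5.82 and 3.37, with 3.10 in females. The peaks of LManII (3.24, females 2.56), CG15117 (2.31, females 2.89), Tsp29Fa (2.28, females 2.01) and g, a subunit of the AP-3 adaptor (1.36, females 2.75), were weaker. Each of these genes thus had the peak in both sexes of yw and in no mutant list, except for the remaining peaks of Mvl and g.

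The strongest 5′ UTR peak of a member in the yw male list was that of Cln7, a transporter of the lysosome membrane, on chromosome 3L from 7344230 to 7345183. Its fold enrichment was 9.47 in yw males and 7.82 in yw females, it had no partner in the Mettl3 and Mettl14 lists, and it stood at 1.96 in the Hakai list. Hexo2, a beta-hexosaminidase, went from 6.05 in yw males and 4.05 in yw females to 2.16 in the Mettl3 list with no partner in the others. CG3376 kept a peak in every list, shorter in the mutants, at 6.41 in yw males, 7.52 in yw females, 2.01 in the Mettl3, 1.68 in the Mettl14 and 2.99 in the Hakai males. Not every 5′ UTR peak followed this course, as in AP-1gamma and CG12163, which were chosen after their values were seen. AP-1gamma, a subunit of the AP-1 adaptor, was at 4.60 in yw males and 4.93, 3.88 and 4.03 in the Mettl3, Mettl14 and Hakai lists, and CG12163, a cathepsin F-like protease, was at 1.36 in yw males and 1.82, 1.61 and 1.52 in these lists.

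Where a 5′ UTR peak had a partner, its fold enrichment was lower in the mutant for 5 of 7 pairs in the Mettl3, 5 of 7 in the Mettl14 and 5 of 6 in the Hakai list. The median log2 ratios of mutant over yw were -0.54, -0.25 and -0.32, beside -0.56, -0.45 and -0.58 over all genes. In the 3′ UTR the medians over 60, 48 and 54 pairs were -0.10, 0.03 and -0.03, near no difference.

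**Figure D5:**
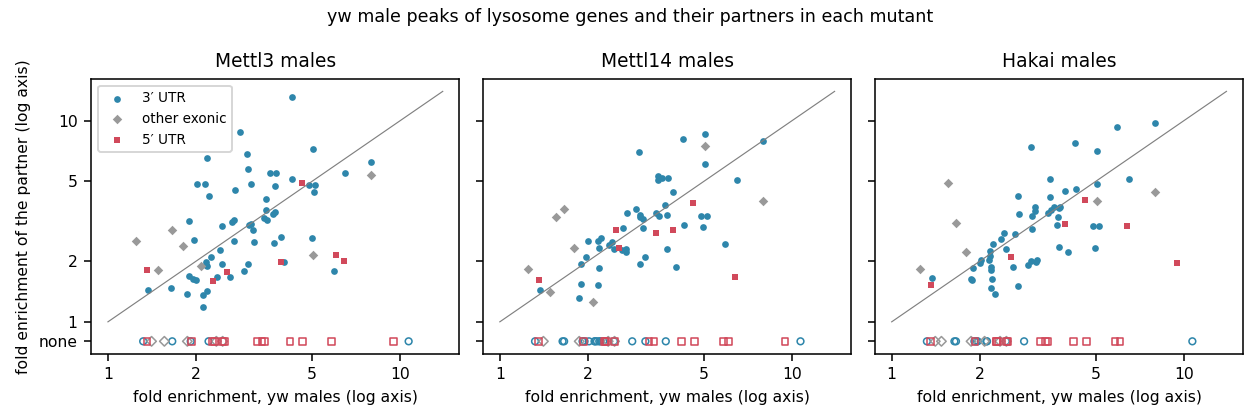
Fold enrichment (log axis) of lysosome gene peaks in yw males (x axis) and of their partners in each mutant list (y axis), with colours for the segment and open symbols at the bottom for peaks without a partner. 5′ UTR peaks lie mostly at the bottom or below the diagonal, while 3′ UTR peaks spread along it.

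Peaks outside the 5′ UTR were matched in the same way, and the difference between segments was not tested. Of 65 member peaks in the 3′ UTR, 5 had no partner in the Mettl3 list (7.69%, all genes 9.29%), 17 none in the Mettl14 list (26.2%, all genes 13.2%) and 11 none in the Hakai list (16.9%, all genes 13.3%), and 4 had none in all 3 (6.15%, all genes 4.22%). Those 4 were in CG17283, CG14291, cathD and rb, and only that of rb overlapped a yw female peak. That female peak was assigned to the 5′ UTR and spanned 4460004 to 4611385 on chromosome X. Its overlap therefore does not show that the 3′ UTR peak of rb recurs in females. CG17283, an aspartic protease, had a 3′ UTR fold enrichment of 10.7 with levels of only 0.472 and 0.576 FPKM in yw males, and an exomePeak p of 0.0052. Of 12 other exonic peaks 4 had no partner in all 3 lists, in AP-1-2beta, CG17119 (a cystinosin-like transporter), CG3376 and Npc2e, where all genes gave 24.1%. In the Mettl3, Mettl14 and Hakai lists taken singly 5, 4 and 6 of these 12 had none, where all genes gave 36.4%, 40.6% and 41.8%. Over all segments 23, 34 and 31 of the 97 member peaks had no partner in the Mettl3, Mettl14 and Hakai lists and 18 had none in any of the 3, where all genes gave 23.4%, 28.7%, 25% and 14.4%.

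Lists of the mutants also held member peaks without a partner in yw males. They were 21 of 95 in the Mettl3 (22.1%), 21 of 83 in the Mettl14 (25.3%) and 22 of 88 in the Hakai list (25.0%), where all genes gave 25.3%, 21.4% and 17.6%. Only 1, 2 and 3 of these lay in a 5′ UTR and 20, 16 and 13 in a 3′ UTR. Between the yw lists, 28 of the 99 female member peaks had no partner in males (28.3%, all genes 30.4%), 11 of them in the 5′ UTR. Among genes with a female 5′ UTR peak and none in males were the phospholipase pair, CG31683 at 8.92 and CG18858 at 3.72, chosen after their values were seen. CG18858 had 3′ UTR peaks in the mutant lists, with a fold enrichment of up to 5.65, 9.60 and 26.1 in the Mettl3, Mettl14 and Hakai males.

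Most members with a 5′ UTR peak in yw males had no call on their RNA level, as was true of most tested genes. Over all tested genes 8.79%, 9.05% and 8.7% changed in the Mettl3, Mettl14 and Hakai males. Of the 13 tested members with a 5′ UTR peak in yw males, 2 rose in the Mettl3 males, 1 in the Mettl14 males and 3 in the Hakai males. Of the 73 without such a peak, 5 rose and 5 fell in the Mettl3 males, 11 rose in the Mettl14 males, and 9 rose and 3 fell in the Hakai males. Of the 7 genes whose 5′ UTR peaks were lost from all 3 mutant lists, only LManII passed a test of its RNA level, in the Hakai males. Over all tested genes 17.1% changed in at least 1 mutant. Chc, Mvl, CG5731, CG15117, Tsp29Fa and g had log2 fold changes between -0.43 and 0.34 in the 3 mutants. The sulfatases CG18278 and CG30059 had no 5′ UTR peak in any list. CG18278 had 2 peaks in its 3′ UTR in every list, with a fold enrichment of up to 5.13 in yw males, 9.25 in the Mettl3, 3.93 in the Mettl14 and 3.40 in the Hakai males, and CG30059 had none. In yw males those 2 peaks overlapped each other, and the low level of CG18278 there, given above, leaves little input RNA under the ratio. CG18278 also overlaps another annotated gene, so part of the precipitated reads may not be its own.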

How the data were processed

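The series held 20 libraries, 10 input and 10 immunoprecipitated, and 6 processed files, all used here. Per the labels and the study's methods, the authors trimmed reads with fastp and mapped them with HISAT2. They made the FPKM values of the deposited table with StringTie from the input libraries, with no further normalization stated. The deposited peak lists hold exomePeak's fold enrichment (a ratio of precipitated over input), with the log10 of the p-value and of the FDR as the authors gave them, on the joined replicates of a group, and regions assigned by ChIPseeker. Coordinates are those of the files, on the genome that the study's methods give by a release number alone. The files hold no read counts, so the depth of each library is unknown, and intervals of shares cover counting error only.

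Lysosome genes were the genes whose KEGG column held the lysosome pathway and not oxidative phosphorylation. Roles, marker lists and members were chosen with earlier results of these data known. In R 4.3.3, limma 3.58.1 (lmFit, eBayes with trend) was run on log2(FPKM + 1) for genes averaging 1 FPKM or more over the libraries of the fit, in a fit of the 8 male input libraries and a fit of the 4 yw input libraries. All p-values are two-sided and adjusted by Benjamini-Hochberg over all tested genes. The fit was tested on simulated data. Peaks were matched in Python 3.11.15 (numpy 2.4.6, pandas 2.3.3, statsmodels 0.14.6) when they overlapped by over 50% of the smaller one, whatever the strand. Rows repeated word for word were counted once, a choice made after seeing the data that removed 8 of 105 member rows in yw males. Plots were drawn with matplotlib 3.10.9.

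Genes named with values were the 10 members with the largest changes past the test in each comparison, those changed alike in all 3 mutants, the 2 highest by mean FPKM in each role, those with a yw male 5′ UTR peak enriched 5-fold or more, and up to 12 with a peak lost in all 3 mutants. Other names are said to be chosen after their values were seen or complete a list, as g, rb and AP-1-2beta do for peaks lost in all 3 mutants. A planned search of promoters for motifs was not run, since no sequence was used here. Alternatives were adding 0.1 in place of 1 before the log, keeping every gene, a stricter floor of 5 FPKM, no trend, equal medians, the libraries of a comparison alone, all 10 libraries for the sexes, a replicate block, each library left out, and other overlap rules and peak thresholds.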

Additional observations from a re-analysis of the deposited data

Results flagged for a closer look

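Some members differed between mutants by a test of the difference itself. The limma contrast of Mettl14 with Mettl3 males, in which 10.6% of all tested genes changed, gave log2 differences of 1.08 ± 0.22 for CG4250 (adjusted p = 0.0284), 1.06 ± 0.11 (limma adjusted p = 0.00327) for LManV, 1.08 ± 0.17 (limma adjusted p = 0.0124) for Npc1b and 1.28 ± 0.12 (limma adjusted p = 0.00188) for Npc2e. All were higher in both Mettl14 libraries than in both Mettl3 libraries. The contrast of Hakai with Mettl14 males, in which 6.49% of all tested genes changed, gave -1.20 ± 0.18 (limma adjusted p = 0.0132) for LManIV, -1.64 ± 0.11 (limma adjusted p = 0.00111) for LManV, -1.38 ± 0.17 (limma adjusted p = 0.00670) for Npc1b and -1.79 ± 0.12 (limma adjusted p = 9.18e-04) for Npc2e, each lower in both Hakai libraries. Npc1b and Npc2e entered the test only through the Mettl14 libraries, in which they are high, so their contrasts rest on that entry. LManIV would have missed the floor of 1 FPKM without the libraries of the Mettl14 or of the yw males. The mean of the midgut marker sums was highest in the Mettl14 and lowest in the Hakai males, and the part of the midgut in these differences was not tested. No group had enough libraries for a check of single outlying samples.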

How the results depend on the processing

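No member called in a comparison under the naming rule reversed its direction there under any alternative in which it was tested, and values with no call were not followed. The median of the Mettl3 males, 0.02, was -0.02 under equal medians and -0.05 in a fit of the 4 libraries alone. The counts of members changed ran from 0 to 11 (Mettl3), 8 to 13 (Mettl14), 6 to 9 (Hakai) and 16 to 58 (sexes) when 1 library at a time was left out, and the median log2 fold changes from -0.02 to 0.04, 0.21 to 0.37, 0.04 to 0.24 and 0.06 to 0.12. A fit of the 4 libraries alone gave 6 for Mettl14 and 6 for Hakai, and a mean FPKM of at least 5, with fewer genes tested, 9 for Hakai. With at least a 2-fold change and an unadjusted p under 0.05 the counts were 3 (Mettl3), 6 (Hakai) and 11 (sexes), and with an adjusted p under 0.05 they were 2, 6 and 11, and 5 for Mettl14. Equal medians gave a median log2 fold change of 0.15 for Mettl14, and for the sexes 55 members changed with a median of 0.50. With the replicate block 23 members changed in the Mettl3 males, 23 in the Mettl14 males, 18 in the Hakai males and 36 between the sexes. Samples of the same number deviated together between yw and Mettl14 males (r = 0.50), yw and Hakai males (0.46) and Mettl14 and Hakai males (0.66), but not with the Mettl3 males (0.02 to 0.06), so the numbers were not taken to pair the samples. The cause of these shifts was not tested. For yw peaks at an FDR of at most 0.01, 13 of 86 had no partner in the Mettl3 list (15.1%, all genes 18.4%) and 9 in all 3 (10.5%, all genes 10.7%). Of the 13 yw peaks enriched 5-fold or more, 3, 4 and 3 had no partner in the Mettl3, Mettl14 and Hakai lists and 2 in all 3, where all genes gave 26.3%, 31.0%, 17.7% and 12.9%, and the 5′ UTR share of yw males was 30.8%. Counting repeated rows, an alternative chosen after seeing the data, gave 25, 36, 35 and 18 of 105. The depth of the libraries, which is unknown, limits what weak peaks and low genes can show, and 2 libraries per group limit every test.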

Other observations

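Lysosome genes often lay close to each other: 44 of the 102 members lay within 20 kb of another member, in 15 runs. In the run LManIII to LManVI 2 genes fell in the Hakai males, in the run of Lip4 and CG18301 the genes moved apart in the Mettl3 males, and in the run of the LITAF-like genes 3 of 8 rose in the Mettl14 males. Hexo1, a beta-hexosaminidase chosen after its values were seen, stood at 11.1 and 15.7 FPKM in the yw males, 8.39 and 7.60 in the Mettl3 males, 16.9 and 21.6 in the Mettl14 males and 12.7 and 17.7 in the Hakai males, and differed between the Mettl14 and Mettl3 males by 1.16 ± 0.22 (limma adjusted p = 0.0239). Gba1a, a glucocerebrosidase chosen in the same way, stood at 5.63 and 4.67, 6.41 and 7.83, 8.25 and 9.15 and 3.28 and 4.31 FPKM in these groups and was lower in the Hakai than in the Mettl14 males, with a log2 difference of -1.02 ± 0.16 (limma adjusted p = 0.0148).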
